A study of Homo sapiens with 30 samples.

Results

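The APOBEC3 cytidine deaminases are 7 human genes, *APOBEC3A*, *APOBEC3B*, *APOBEC3C*, *APOBEC3D*, *APOBEC3F*, *APOBEC3G* and *APOBEC3H*, that lie side by side on chromosome 22. They were taken from the table of raw read counts by the Ensembl identifiers that map to these symbols. Of the 7, 6 had a row among the 39359 genes of the table and 5 passed the filter on low counts that 21335 genes passed. *APOBEC3A* was not analysed here, and *APOBEC3B*, with at most 4 counts in any library, did not pass the filter.

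APOBEC3 enzymes remove the amino group of cytosine in single-stranded DNA, which leaves uracil. They are known for restricting retroviruses and mobile elements, and uracil that is not repaired in the genome of the cell leaves C-to-T and C-to-G mutations found in many tumours. *APOBEC3A* and *APOBEC3B* are the members most often linked to such mutations, *APOBEC3D*, *APOBEC3F*, *APOBEC3G* and *APOBEC3H* are known for blocking HIV that lacks Vif, and *APOBEC3C* is a widely expressed member with a single deaminase domain. Several members are described as interferon-inducible, and p53 has been described both to raise some members and, through the DREAM repressor complex, to lower *APOBEC3B*.

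The study measured RNA by RNA-seq in H1299, a human lung carcinoma cell line without p53, and asked how transcriptional mutagenesis (TM) of p53 alters the genes that p53 regulates. All cultures were transiently transfected with a GFP-expressing plasmid with TRE-tight promoters and GFP-positive cells were sorted at 6 h or 24 h, so levels describe cells that overexpress p53 from a vector. The pGFP vector carried no p53, and the others also carried wild type p53, the R248W form (RW mutant p53) or wild type p53 with *O*6-methylguanine on the template strand of the same codon (p53 O6-meG). The p53 TM cultures carried the O6-meG vector and were given *O*6-benzylguanine at 10 µM, which inactivates the repair protein AGT and was given to no other group. In comparisons of p53 TM with any other group, the drug itself and the lesion left unrepaired therefore cannot be told apart.

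The labels of 2 libraries at 6 h contradict themselves. The title of replicate 2 of one starts with the name of p53 TM while its genotype is that of p53 O6-meG, and the other is the reverse. Both were left in no group, so p53 O6-meG and p53 TM at 6 h had 2 libraries each and the other 8 groups had 3, 28 libraries in all. Total counts ran from 32302699 to 71950532 with a median of 44424643 over all 30 libraries. The epithelial and mesenchymal markers *KRT8*, *KRT18* and *VIM* had at least 111, 272 and 1934 CPM (counts scaled to library size, by the TMM method) in the grouped libraries. The 5 lung epithelium markers summed to 0.361 to 0.806 CPM in the libraries at 6 h and to 0.763 to 1.9 CPM at 24 h. The 7 blood cell markers with a row, among a list of 9, summed to 0.412 to 0.871 CPM at 6 h and to 1.05 to 2.81 CPM at 24 h, so that every 24 h library was above every 6 h library. *PTPRC*, the pan-leukocyte marker, was at 0 in 22 of 28 libraries.

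In hg38 (GENCODE v44 coordinates) the cluster spans 38952741 to 39104067, 151.3 kb on the plus strand of chromosome 22. In order along it are *APOBEC3A* (38952741 to 38963184), *APOBEC3B* (ENSG00000179750.15, 38982347 to 38992804), *APOBEC3C* (ENSG00000244509.3, 39014257 to 39020352), *APOBEC3D* (ENSG00000243811.8, 39021113 to 39033277), *APOBEC3F* (ENSG00000128394.16, 39040604 to 39055972), *APOBEC3G* (ENSG00000239713.8, 39077067 to 39087743) and *APOBEC3H* (ENSG00000100298.15, 39097224 to 39104067). The genes arose by duplication, and reads in repeated stretches may be lost or misplaced. The 75-base windows in the exons were searched for in the whole cluster region on both strands. That region includes introns, the stretches between genes and the same gene. Of these windows, 38.8% of *APOBEC3B*, 10.5% of *APOBEC3D*, 8.93% of *APOBEC3G* and 7.42% of *APOBEC3F* occur there more than once. For *APOBEC3C* the share is 1.28% and for *APOBEC3H* 0%. Whether a repeat lies in another member was not separated. A readthrough gene overlaps both *APOBEC3C* and *APOBEC3D*, and the antisense gene *APOBEC3B-AS1* overlaps *APOBEC3B*. Whether the counting used strand is not given in the sources used here, so reads of *APOBEC3B* and its antisense partner cannot be told apart.

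*APOBEC3C* was by far the most abundant member in these cells. In the pGFP libraries at 24 h it stood at 6.66 ± 0.759 CPM per kb of exon (SD, n = 3), against 0.745 ± 0.17 for *APOBEC3F*, 0.226 ± 0.0309 for *APOBEC3D*, 0.174 ± 0.0337 for *APOBEC3G* and 0.0301 ± 0.016 for *APOBEC3B*. The neighbours *APOBEC3D* and *APOBEC3G* in this order lay within their spread. *APOBEC3H* had no count in the 6 pGFP libraries. At 6 h the pGFP order was the same, at 5.77 ± 0.376, 0.347 ± 0.0771, 0.191 ± 0.0138, 0.0396 ± 0.0133 and 0.00663 ± 0.00579 CPM per kb. *APOBEC3C* gave 76.3% of the summed APOBEC3 reads with pGFP at 24 h, as a mean of 3 libraries, and 90.6% with wild type p53. The reads of the members together summed to 23.1 ± 1.56 CPM with pGFP and 68.6 ± 10.0 CPM with wild type p53 at that time (SD, n = 3).

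**Figure D1:**
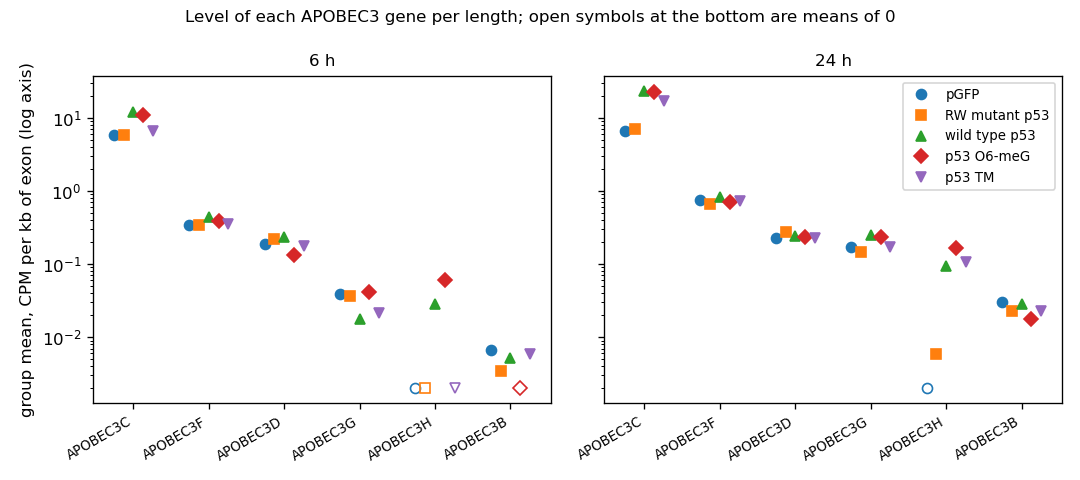
Mean level of each member with counts, per kb of exon, in the 5 vectors or treatments at 6 h and 24 h on a log axis; an open symbol at the foot marks a group mean of 0. *APOBEC3C* lies above every other member in every group, between 5.77 with pGFP and 12.1 with wild type p53 at 6 h, and between 6.66 and 23.5 at 24 h.

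*APOBEC3C* rose with wild type p53 at both times and did not do so with the RW mutant. At 6 h its level was 14.1, 15.9 and 15.8 CPM in the pGFP libraries, and 30.8, 32.5 and 32.7 CPM with wild type p53. All 3 wild type libraries lay above all 3 of pGFP. The log2 fold change was 1.07 (SE 0.12), a 2.1-fold rise (adjusted *P* = 5.3e-07, edgeR's quasi-likelihood test, Benjamini-Hochberg over all genes tested). *APOBEC3C* was the only 1 of the 5 members tested to be called, meaning an adjusted *P* below 0.05 with no fold limit, against 10.3% of all genes in that comparison. With RW mutant p53 the level was 14.8, 13.9 and 17 CPM, and the groups overlapped.

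The rise was larger at 24 h. The pGFP libraries then held 15.5, 19.5 and 17.8 CPM and those of wild type p53 67.5, 67.3 and 51.7 CPM. The groups did not overlap, and the log2 fold change was 1.82 (SE 0.13), 3.53-fold, with an adjusted *P* of 2.5e-11. *APOBEC3C* was called in this comparison, as were 34.9% of all genes. *APOBEC3H* also had an adjusted *P* below 0.05, but it passed the filter only through the groups in which it was high and is not counted as a result here. The difference between the responses at 24 h and 6 h was 0.75 on the log2 scale (SE 0.17, adjusted *P* = 0.0093), in a comparison that called 6.49% of all genes and 1 of the 5 members. With the 2 conflicting libraries placed by genotype the same difference had an adjusted *P* of 0.14, within a range of 0.00076 to 0.14 over 8 settings.

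RW mutant p53 left *APOBEC3C* at 17.8, 19.7 and 18.4 CPM at 24 h, interleaved with pGFP. No member was called in RW mutant p53 against pGFP at either time, by edgeR or by the DESeq2 Wald test, and 0 members had an unadjusted *P* below 0.05 in edgeR. That comparison called 0.00469% of all genes at each time, or 1 gene. The log2 fold change of *APOBEC3C* was 0.00 (SE 0.13) at 6 h and 0.08 (SE 0.13) at 24 h. Set against RW mutant p53, wild type p53 raised *APOBEC3C* by 1.07 on the log2 scale at 6 h (SE 0.13, adjusted *P* = 6.1e-07) and by 1.74 at 24 h (SE 0.13, adjusted *P* = 5.3e-11). It called 9.95% of all genes at 6 h and, at the later time, 35.5%.

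**Figure D2:**
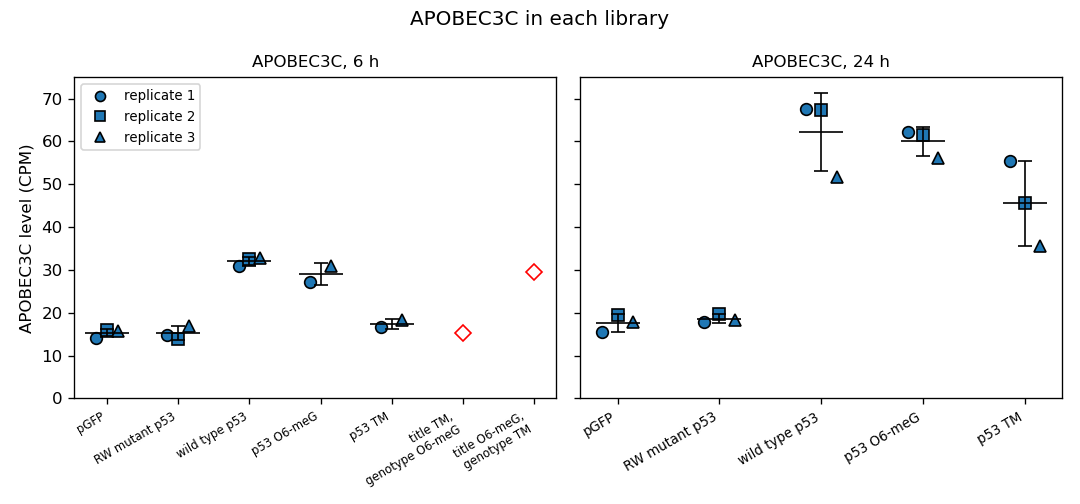
Level of *APOBEC3C* in CPM in each library at 6 h (left) and 24 h (right), with the group mean (long bar) and SD (whiskers); the diamonds at 6 h are the 2 libraries in no group. At 24 h the lowest wild type p53 library, 51.7 CPM, lies above the highest pGFP library, 19.5 CPM, and the p53 TM libraries spread from 35.5 to 55.4 CPM.

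The O6-meG vector without the drug gave *APOBEC3C* levels near those of wild type p53. The 2 libraries at 6 h held 27.2 and 30.9 CPM, above all 3 of pGFP, and the log2 fold change against pGFP was 0.93 (SE 0.14, adjusted *P* = 4.3e-05). At 24 h the levels were 62.3, 61.6 and 56.2 CPM and the log2 fold change was 1.77 (SE 0.13, adjusted *P* = 5.7e-11). All genes called in these comparisons were 4.80% at 6 h and 29.4% at 24 h. Against wild type p53 the log2 fold change of *APOBEC3C* was −0.14 (SE 0.14) at 6 h and −0.05 (SE 0.12) at 24 h, with adjusted *P* of 0.74 and 1. That comparison called 0% of all genes at 6 h, where edgeR gave 2109 genes an unadjusted *P* below 0.05, and 0.00937% at 24 h. None of the 5 members was called in it, and 1 at 6 h and 0 at 24 h had an unadjusted *P* below 0.05. DESeq2 called none either. These comparisons with pGFP share the pGFP libraries with those of wild type p53.

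With p53 TM, *APOBEC3C* was near the pGFP level at 6 h and rose by 24 h. The 2 libraries at 6 h held 16.6 and 18.2 CPM, both above the highest pGFP library at 15.9 CPM, and the log2 fold change against pGFP was 0.19 (SE 0.14, adjusted *P* = 0.98). No member was called in that comparison by edgeR or DESeq2 and 0 had an unadjusted *P* below 0.05, where 0.183% of all genes were called. At 24 h the levels were 55.4, 45.7 and 35.5 CPM, all above pGFP, with a log2 fold change of 1.37 (SE 0.13, adjusted *P* = 1.4e-08) in a comparison that called 10.6% of all genes.

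*APOBEC3C* was lower with p53 TM than with wild type p53 at both times. The difference was −0.88 on the log2 scale at 6 h (SE 0.14, adjusted *P* = 8.4e-05), with both p53 TM libraries below all 3 of wild type p53, and −0.45 at 24 h (SE 0.12, adjusted *P* = 0.0084), where replicate 1 of p53 TM lay above replicate 3 of wild type p53. The replicate numbers pair the 24 h libraries, and within each number p53 TM was below wild type p53. The levels were 55.4 against 67.5, 45.7 against 67.3 and 35.5 against 51.7 CPM. Shares of 11.0% (6 h) and 21.2% (24 h) of all genes were called. The call at 24 h ended without replicate 1 of wild type p53 (adjusted *P* = 0.052) or without replicate 3 of p53 TM (0.084), in a fit of only the 2 groups (0.14), and with the 2 conflicting libraries placed by genotype (0.12), over a range of 0.00049 to 0.14.

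The same vector with and without the drug, p53 TM against p53 O6-meG, gave −0.73 (SE 0.15, adjusted *P* = 0.0037) at 6 h and −0.40 (SE 0.12, adjusted *P* = 0.034) at 24 h for *APOBEC3C*. The groups did not overlap at either time, and 4.04% and 9.99% of all genes were called. Both calls ended when single libraries were left out. At 6 h the adjusted *P* was 0.066 without replicate 1 of p53 TM and 0.068 without replicate 3 of p53 O6-meG, over a range of 0.0087 to 0.068 with each library left out. At 24 h it was 0.094 without replicate 1 of p53 O6-meG, 0.099 without its replicate 2, 0.094 without replicate 2 of p53 TM and 0.23 without its replicate 3, over a range of 0.0022 to 0.23. The 24 h call also ended in a fit of only the 2 groups (adjusted *P* = 0.22) and with the 2 conflicting libraries placed by genotype (0.24).

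Of the rise in CPM from the pGFP mean to the wild type p53 mean, 16.7 CPM at 6 h and 44.6 CPM at 24 h, the p53 TM libraries held 8.15% and 17.7% at 6 h. At 24 h they held 84.9%, 63.0% and 40.1%. The p53 O6-meG libraries held 71.0% and 93.4% at 6 h, and 100%, 98.6% and 86.6% at the later time. RW mutant p53 held −0.107 ± 9.64% at 6 h and 2.31 ± 2.1% at 24 h (SD, n = 3). All these shares use the group means and ignore the pairing of the 24 h libraries by replicate number. Wild type p53 itself held 67.5, 67.3 and 51.7 CPM in replicates 1, 2 and 3 at 24 h. The spread and order of the single 24 h shares therefore include differences between replicate numbers, and shares within each number were not computed. The p53 TM libraries lay below those of p53 O6-meG at both times. Whether the gap between p53 TM and wild type p53 differed between 24 h and 6 h was tested in 1 term of the fit, which gave a log2 difference of 0.43 (SE 0.18, adjusted *P* = 0.37) and called no member and 1.41% of all genes. In that term 1 member had an unadjusted *P* below 0.05, and DESeq2 called none.

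The 2 libraries in no group were cells at 6 h, and their placement moved calls at both times in the fit that all groups share. The library whose title starts with p53 TM and whose genotype is p53 O6-meG had 15.3 CPM of *APOBEC3C*, and the other had 29.6 CPM. *CDKN1A*, the CDK inhibitor p21 and a target of p53, was at 50.2 CPM in the first and at 250 CPM in the second. It was at 65.9 and 57.9 CPM in the p53 TM libraries at 6 h and at 269 and 261 CPM in those of p53 O6-meG. These values run as the titles begin, and they were not used to place either library. Grouping both as their titles begin left each *APOBEC3C* call of the 6 h comparisons on its side. Grouping both by genotype ended 3 of those calls, beside the losses at 24 h and in the response over time given above. The log2 fold change of p53 O6-meG against pGFP was then 0.68 (adjusted *P* = 0.15), that of p53 TM against wild type p53 −0.58 (0.15) and that of p53 TM against p53 O6-meG −0.19 (1). Over 8 settings these adjusted *P* values ran from 8.6e-08 to 0.15, from 6.7e-07 to 0.15 and from 3.3e-05 to 1.

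In order of mean level at 24 h, *APOBEC3C* stood at 62.2 ± 9.04 CPM with wild type p53, 60.0 ± 3.34 with p53 O6-meG, 45.5 ± 9.98 with p53 TM, 18.6 ± 0.934 with RW mutant p53 and 17.6 ± 2.01 with pGFP (SD, n = 3). Wild type p53 and p53 O6-meG were not called different, and neither were RW mutant p53 and pGFP. At 6 h the order was wild type p53 at 32.0 ± 1.01, p53 O6-meG at 29.0 ± 2.65 (n = 2), p53 TM at 17.4 ± 1.13 (n = 2), pGFP at 15.3 ± 0.995 and RW mutant p53 at 15.2 ± 1.62 CPM, and neither p53 TM nor RW mutant p53 was called different from pGFP.

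*APOBEC3H*, whose product has a single deaminase domain, gave very few reads, and nearly all of those came from wild type p53 and the O6-meG vector with or without the drug. The 6 pGFP libraries and the 3 RW mutant libraries at 6 h had no count, and the RW mutant libraries at 24 h had 0, 0 and 1. The 24 h counts were 7, 6 and 2 with wild type p53, 9, 13 and 3 with p53 O6-meG and 8, 3 and 7 with p53 TM. Every library of these 3 groups was above every pGFP library. The gene passed the filter only through groups in which it was high, so this order is no support for a difference. At 6 h wild type p53 gave 1, 3 and 1 counts, p53 O6-meG 3 and 3, and p53 TM 0 and 0, and each library in no group gave 1.

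The window printed here is the only stretch before the start of a member that the RefSeq promoter table held (the table has no entry for the other members), and it is shown for that reason only. It covers 230 bases ending just before the GENCODE start of *APOBEC3H*, chr22:39096994-39097223 of hg38, plus strand, 5′ to 3′, with each CAAG in capitals. CAAG is 1 form of the 4-base core of a p53 half-site.

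APOBEC3H promoter: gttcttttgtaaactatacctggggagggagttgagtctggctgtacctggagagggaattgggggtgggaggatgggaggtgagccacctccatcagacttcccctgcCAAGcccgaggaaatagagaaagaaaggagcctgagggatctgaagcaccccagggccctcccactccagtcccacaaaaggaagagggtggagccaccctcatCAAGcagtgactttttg

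The window holds 2 matches to CAAG or its reverse complement CTTG, which 78.7% of the 35116 promoter windows of this length in the table hold. It holds 0 matches to the full p53 half-site consensus, read on both strands, which 5.12% hold. A match to these letters is a description and not a site.

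Since pGFP had no read of *APOBEC3H*, a floor of 3 counts over the group was set for the fold, equal to 0.0239 CPM at 24 h. The summed 24 h counts of *APOBEC3H* were 15 in wild type p53, 25 in p53 O6-meG and 18 in p53 TM. Scaled to library size, these were 4.87, 9.01 and 5.44 times the floor of pGFP. The counting error of these sums was left out, so the folds are not lower bounds. The adjusted *P* values against pGFP were 0.0036, 0.00049 and 0.0075. Wild type p53 against RW mutant p53 at 24 h gave 0.0097. The gene passed the filter only through the groups in which it was high, so that it had to differ. These *P* values are therefore no support for a difference. With a minimum of 10 counts, or with the conflicting libraries placed in a group, the gene was not tested. At 6 h it was called in no comparison. In p53 TM its 24 h libraries against those at 6 h had an adjusted *P* of 0.0041. The adjusted *P* of p53 TM against wild type p53 at 24 h was 0.90. The floor covers counting error in pGFP only.

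**Figure D3:**
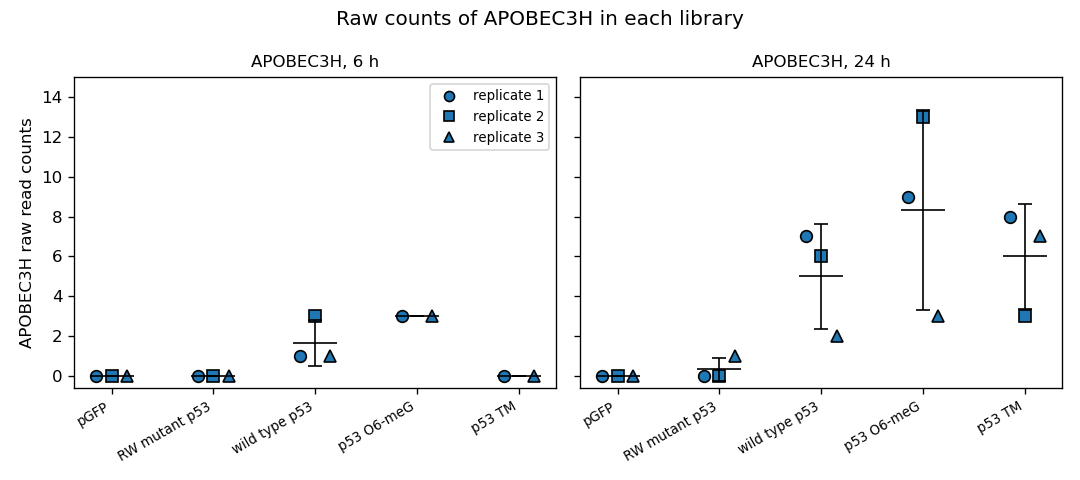
Raw read counts of *APOBEC3H* in each library at 6 h (left) and 24 h (right), with group mean and SD. All 6 pGFP libraries are at 0, and the 24 h libraries of wild type p53, p53 O6-meG and p53 TM run from 2 to 13 counts.

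*APOBEC3G* and *APOBEC3F*, both with a pair of deaminase domains and known for acting against HIV, were higher at 24 h than at 6 h whichever vector the cells carried. The comparison of times within pGFP was planned and those within the other vectors were chosen after the data were seen. *APOBEC3G* was at 0.263, 0.131 and 0.244 CPM in the pGFP libraries at 6 h and at 0.983, 1.09 and 0.735 CPM at 24 h. The 24 h libraries were above the 6 h ones in all 5 vectors. The log2 fold change with pGFP was 2.10 (SE 0.35, adjusted *P* = 2.8e-05), and over the 5 vectors it ran from 2.01 with RW mutant p53 to 3.67 with wild type p53, called in each.

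*APOBEC3F* was at 1.36, 1.94 and 2.13 CPM with pGFP at 6 h and at 4.89, 3.58 and 3.19 CPM at 24 h. Its log2 fold change with pGFP was 1.10 (SE 0.22, adjusted *P* = 0.00026), it ran from 0.86 to 1.10 over the 5 vectors, and it was called in each, with all 24 h libraries above all 6 h libraries. In p53 O6-meG that call ended without replicate 3 at 6 h (adjusted *P* = 0.059). The share of all genes called between the times was 41.1% with pGFP, 40.0% with RW mutant p53, 45.9% with wild type p53, 43.8% with p53 O6-meG and 43.5% with p53 TM, so that a change with time was common. Markers of other cell types and interferon-stimulated genes moved with these members. The blood cell marker *CD14*, a monocyte receptor, rose from 0.248 to 1.34 CPM with pGFP (log2 fold change 2.44, SE 0.49, adjusted *P* = 0.00032) and was called in all 5 vectors, by up to 16-fold with p53 O6-meG. *LYZ*, the lysozyme gene, rose from 0.14 to 0.397 CPM with pGFP (1.51, SE 0.44, adjusted *P* = 0.0082) and was called in each vector but wild type p53. Of the 12 interferon-stimulated genes listed, 7 rose and 3 fell between the times with pGFP and 9 rose and 3 fell with RW mutant p53. Of 9 genes beside the cluster on chromosome 22, 5 rose and 1 fell with pGFP and 6 rose with wild type p53. The part of any of these in the rise of *APOBEC3F* and *APOBEC3G* was not tested.

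*APOBEC3C* was called between the times with wild type p53 (log2 fold change 0.96), p53 O6-meG (1.05) and p53 TM (1.38), and with pGFP and RW mutant p53 it had 0.21 and 0.29 with adjusted *P* of 0.20 and 0.071.

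**Figure D4:**
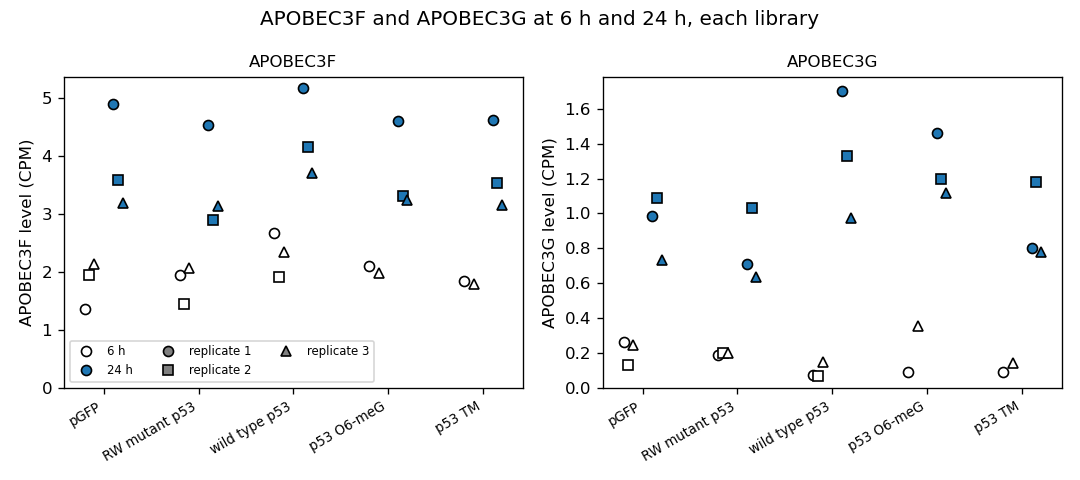
Level of *APOBEC3F* and *APOBEC3G* in CPM in each library, 6 h (open) and 24 h (filled), for the 5 vectors or treatments. In every vector the 24 h libraries lie above the 6 h libraries, from 2.9 to 5.17 CPM for *APOBEC3F* and from 0.636 to 1.7 CPM for *APOBEC3G* at 24 h.

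*APOBEC3G* also differed by vector at 24 h, though near the threshold. With wild type p53 its 3 libraries held 1.70, 1.33 and 0.973 CPM, against 0.709, 1.03 and 0.636 CPM with RW mutant p53. The groups overlapped, though within each replicate number wild type p53 was above RW mutant p53. The log2 fold change was 0.75 (SE 0.29, adjusted *P* = 0.045). That call ended without replicate 1 (0.25) or 2 (0.084) of wild type p53 and without replicate 1 (0.12) or 3 (0.16) of RW mutant p53. It also ended in 3 of 7 settings, the DESeq2 Wald test (0.053), the fit without a filter beyond 1 count (0.11) and the fit of only the 2 groups (0.091). Against pGFP the log2 fold change was 0.51 (SE 0.29, adjusted *P* = 0.18). With the replicate number as a block, which pairs the 24 h libraries, it was 0.50 with an adjusted *P* of 0.046, and p53 TM against wild type p53, −0.54 (SE 0.28, adjusted *P* = 0.20) without the block, was −0.52 with an adjusted *P* of 0.048. At 6 h *APOBEC3G* had 3, 3 and 10 counts with wild type p53 and 13, 6 and 14 with pGFP, a log2 fold change of −1.06 (SE 0.46, adjusted *P* = 0.18). The difference between its responses to wild type p53 at 24 h and 6 h was 1.57 (SE 0.54, adjusted *P* = 0.087), and 1.60 with the replicate block (adjusted *P* = 0.017).

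*APOBEC3F* was not called in any comparison between vectors. *APOBEC3D*, another member with a pair of deaminase domains, was not either. The level of *APOBEC3D* ran from 0.257 to 0.841 CPM over all 30 libraries, 11 to 47 counts, and its group means at 24 h ran from 0.571 CPM with pGFP to 0.707 CPM with RW mutant p53. It was called in 1 comparison, p53 O6-meG at 24 h against 6 h (log2 fold change 0.82, SE 0.29, adjusted *P* = 0.025), which had 14 and 13 counts at 6 h and 24, 29 and 16 at 24 h. Leaving out any of 4 of those 5 libraries ended the call: the adjusted *P* was 0.16 and 0.071 without replicate 1 or 3 at 6 h, and 0.092 and 0.058 without replicate 1 or 2 at 24 h.

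**Figure D5:**
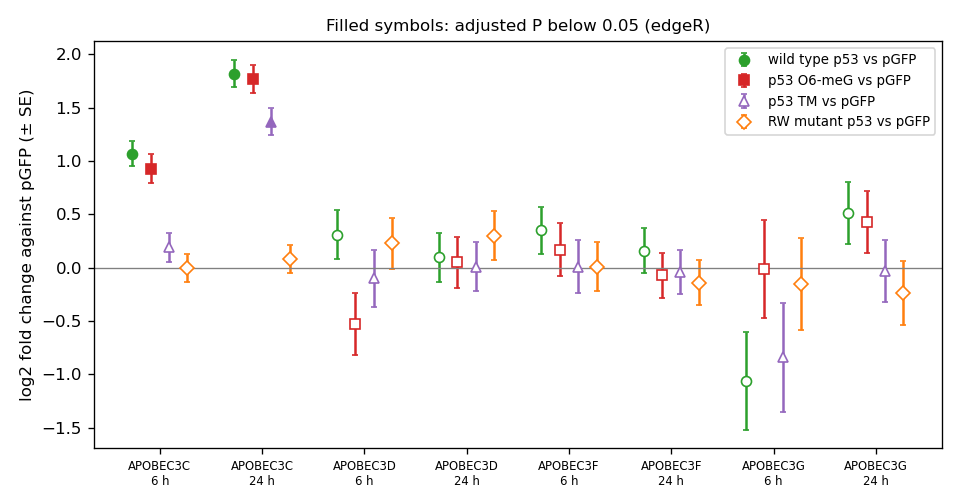
Log2 fold change against pGFP with its SE for the 4 members tested that had counts in every library, by vector or treatment and time; filled symbols have an adjusted *P* below 0.05. Only *APOBEC3C* has filled symbols, at 1.07 (6 h) and 1.82 (24 h) with wild type p53 and at 0.19 (open, 6 h) and 1.37 (24 h) with p53 TM.

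*APOBEC3B* was close to silent. It had 36 counts over all 30 libraries and was at 0 in 11 of them. Over the grouped libraries it had 6 counts in the 13 at 6 h, from 5 libraries, and 30 counts in the 15 at 24 h, from 14 libraries. At 24 h the counts were 3, 1 and 3 with pGFP and 4, 3 and 0 with wild type p53. A difference between vectors was not detectable at this depth. The relatives outside the cluster were also low: *APOBEC1* and *APOBEC2* reached at most 2 and 6 counts in any grouped library.

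The members did not share a single pattern. Over the 28 grouped libraries, as a description, Pearson's r of log2(CPM + 0.5) was 0.86 between *APOBEC3C* and *APOBEC3H* and 0.85 between *APOBEC3F* and *APOBEC3G*, and 0.18 between *APOBEC3C* and *APOBEC3D*. These libraries share their vectors and times. *APOBEC3H* was at 0 in 13 of all 30 libraries and had at most 13 counts, and *APOBEC3D* had 11 to 47 counts. The r values of these members therefore rest on few reads. *APOBEC3H* also passed the filter only through groups in which it was high, so its r values are no support for a shared pattern. The genes most like *APOBEC3C* among 14174 with a mean of at least 1 CPM were *CDIP1* (r = 0.991), *STAT3* (0.990) and *CHD9NB* (0.989). Those most like *APOBEC3H* were *FBXW7*, *HHAT* and *RNF185* (0.910, 0.908 and 0.904). For *APOBEC3F* they were *CUX1*, *RRAGC-DT* and *GIPR* (0.964, 0.962 and 0.958), for *APOBEC3G* *DPEP3*, *PALM* and *AHRR* (0.965, 0.962 and 0.955), and for *APOBEC3D* *FBXL7*, *DLGAP3* and *IGFBPL1* (0.664, 0.660 and 0.655).

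Of 9 genes beside the cluster on chromosome 22, 1 rose with wild type p53 at 24 h and none fell, where 34.9% of all genes were called. It was *PDGFB*, a growth factor chain, at 3.44 CPM against 0.757 CPM with pGFP (log2 fold change 2.17, SE 0.26, adjusted *P* = 1.7e-07), and p53 TM against wild type p53 gave a fall (−1.49, SE 0.24, adjusted *P* = 9.3e-05). The median of the 9 was 0.09, against 0.01 over all genes.

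Genes that handle the uracil left by these enzymes went both ways. Of 10 listed, 2 rose and 2 fell with wild type p53 against pGFP at 24 h. The 4 called of 10 are near the share of all genes called, 34.9%, and say nothing particular of the list. *TDG*, a glycosylase that removes uracil and thymine opposite guanine, rose from 43.7 to 72.2 CPM (log2 fold change 0.73, adjusted *P* = 2.7e-06), and *LIG1*, a DNA ligase, from 53.1 to 81.0 CPM (0.61, adjusted *P* = 2.1e-06). *MBD4*, another glycosylase for mismatched uracil and thymine, fell from 69.3 to 44 CPM (−0.66, adjusted *P* = 1e-09), and *XRCC1*, a scaffold of base excision repair, from 88.7 to 73.7 CPM (−0.27, adjusted *P* = 0.0051). *UNG*, the main uracil glycosylase, had 88.3 CPM with pGFP and 79.0 CPM with wild type p53 (−0.16, adjusted *P* = 0.31). In p53 TM against wild type p53 at 24 h *MBD4* was higher by 0.46 (adjusted *P* = 4.4e-06) and *TDG* was at −0.32 (adjusted *P* = 0.028). No member of the list was called with RW mutant p53, and at 24 h 2 rose and 2 fell with p53 O6-meG and 2 rose and 1 fell with p53 TM, each against pGFP. The shares of all genes called in the latter 2 comparisons were 29.4% and 10.6%.

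Of 11 parts of the DREAM and E2F repressor complexes with the p53 target *CDKN1A*, 3 rose and 3 fell with wild type p53 at 24 h, against 34.9% of all genes called. *CDKN1A* rose from 48.0 to 615 CPM (log2 fold change 3.68, SE 0.17, adjusted *P* = 1.9e-13), *LIN54* by 0.46, while *RBL1* and *LIN52* were at −0.70 and −0.38. Of 10 cell cycle genes bound by DREAM or by B-MYB and FOXM1, none rose and 8 fell, among them *CDK1* (−1.32, adjusted *P* = 2.4e-07), *TOP2A* (−0.77), *MYBL2* (−0.44) and *MKI67* (−0.59). With RW mutant p53 none of either list was called, and at 24 h 8 of the 10 cell cycle genes fell with p53 O6-meG and 3 with p53 TM, against 29.4% and 10.6% of all genes called.

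Of 12 interferon-stimulated genes, 4 rose with wild type p53 at 24 h and none fell, a share near the 34.9% of all genes called. They were *ISG15*, a ubiquitin-like modifier (log2 fold change 0.65, SE 0.11, adjusted *P* = 1.9e-05), *IFIT3* (0.96), *MX1* (1.24) and *IFIT2* (0.62), and the median of the 12 was 0.57 against 0.01 over all genes. At 6 h 2 rose, where 10.3% of all genes were called. Against pGFP at 24 h, 2 of the 12 rose with p53 O6-meG and 1 with p53 TM, where 29.4% and 10.6% of all genes were called. None was called with RW mutant p53 at either time. In p53 TM against wild type p53 3 were lower at 24 h, where 21.2% of all genes were called. Of 6 other nucleotide or RNA deaminases tested, among 7 listed, 1 rose with wild type p53 at 24 h, the RNA editing enzyme *ADARB1*, from 16.5 to 20.2 CPM (0.30, SE 0.08, adjusted *P* = 0.003). The other tested deaminases were not called.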

How the data were processed

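RNA-seq of sorted H1299 cells was used from 30 libraries. The authors aligned single reads to hg38 with STAR 2.5.3a, counted them on GENCODE v27 genes with featureCounts of Subread 1.5.2 and deposited the raw counts used here; a second deposited table, of normalized values, was not used. Symbols came from GENCODE v44 for 38904 of 39359 rows. The members, lists and the treatment of the 2 conflicting libraries were chosen with earlier results of these data known.

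In R 4.3.3, edgeR 4.0.16 was applied: filterByExpr by group, TMM, and 1 robust quasi-likelihood fit over 28 libraries, with Benjamini-Hochberg adjustment over 21335 genes. The authors describe the replicates of a group as biological, and *P* values measure only their spread. Genes named are the 7 members and, per list, up to 4 genes called in wild type p53 against pGFP at 24 h with the smallest *P*. Beyond this rule, *UNG* and the markers were named after their values were seen. Some results are not reported here. The script was tested on simulated data. Alternatives were DESeq2 1.42.0 (Wald test, or its size factors in edgeR), no filter beyond 1 count, a minimum of 10 counts per library, a fit limited to the groups in the comparison, a replicate block, both placements of the conflicting libraries, and each library left out. Same-numbered libraries of different groups deviated together at 24 h (30 of 30 pairs with r above 0.1, 0.291 to 0.764), so the numbers pair them, and at 6 h not in all (14 of 23 pairs). No libraries of a group were duplicates (chi-square per degree of freedom of 6.08 to 47.4 over 26 pairs). Fewer cells of a kind and less RNA per cell cannot be told apart in bulk RNA. All columns of the count table were mapped to samples.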

Additional observations from a re-analysis of the deposited data

Results flagged for a closer look

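The response of *APOBEC3C* to wild type p53 differed between the times, by 0.75 on the log2 scale, in a test of the difference itself (adjusted *P* = 0.0093, edgeR). All 3 wild type p53 libraries at 24 h, 51.7 to 67.5 CPM, lay above the 3 at 6 h, 30.8 to 32.7 CPM. The test kept its side in 7 of 8 settings, and in all 12 fits with a library left out.

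Of the 2 libraries in no group, the one whose title starts with p53 O6-meG and whose genotype is p53 TM had 29.6 CPM of *APOBEC3C*, more than 3 SD above the mean of the pGFP libraries at 6 h (15.3 ± 0.995 CPM, n = 3). The other library had 15.3 CPM.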

How the results depend on the processing

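Of 537 refits of 41 gene results, 498 kept direction and side of the threshold, 32 lost a call, 5 gained one and 2 turned sign. *APOBEC3C* stayed called in wild type p53 against pGFP and against RW mutant p53 at both times under all 8 settings and with each library left out. The 2 sign changes were *APOBEC3C* in p53 O6-meG against wild type p53 at 24 h, never called, which ran from −0.17 to 0.01 with a library left out.

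The number of members called moved by over 1.5 times as follows, with *APOBEC3H* counted wherever it was tested. For wild type p53, p53 O6-meG and p53 TM against pGFP at 24 h it was 1 in place of 2 with the minimum of 10 counts, with either placement of the conflicting libraries and with only the groups compared, where *APOBEC3H* did not pass the filter. It was also 1 in wild type p53 against RW mutant p53 at 24 h, in place of 3, with the minimum of 10 counts and with only the groups compared, in pGFP at 24 h against 6 h with that minimum (2 before), and in p53 TM against pGFP at 24 h by DESeq2, which gave *APOBEC3H* no adjusted *P*. Placing the conflicting libraries by genotype left 0 in place of 1 in p53 O6-meG against pGFP, p53 TM against wild type p53 and p53 TM against p53 O6-meG at 6 h, in both p53 TM comparisons at 24 h, and in the response to wild type p53 over time. With only the groups compared it was 0 for p53 TM against wild type p53 or p53 O6-meG at 24 h. The replicate block gave 2 in place of 1 in p53 O6-meG against pGFP at 6 h (*APOBEC3H*, adjusted *P* = 0.018), in p53 TM against wild type p53 at 24 h and in the response to wild type p53 over time (both *APOBEC3G*), and the calls it changed among the gene results are those named here and in wild type p53 against pGFP at 24 h. With a library left out the number ran from 0 to 1 for p53 TM against p53 O6-meG at 6 h and 24 h and against wild type p53 at 24 h, and from 1 to 2 for p53 O6-meG against pGFP at 24 h and for the response over time. The cause of these moves was otherwise not tested.

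Another scaling moved the median log2 fold change of all genes by at most 0.078. Depth limits *APOBEC3B* and *APOBEC3H*, with at most 4 and 13 counts per library.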
